A study of Mus musculus with 24 samples.

Results

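The livers of C3H/HeJ and A/J mice kept on a choline- and folate-deficient diet were compared directly, with 4 arrays of each strain, 8 of the 24 expression arrays of the series. All were male mice of inbred strains that began their diet at 8 weeks of age and were killed at 20 weeks, after 12 weeks of feeding. The deficient diet, an amino-acid-defined diet, held 0.17% methionine and no choline or folic acid. Control mice of the same strains and age, 4 arrays each of C3H/HeJ and A/J, received the same kind of diet with methionine at 0.4%, folic acid at 2 mg/kg and choline bitartrate at 0.3%, and both diets were supplemented with iron. The control arrays served for a second comparison of the same strains that shares no array with the first, and the WSB/EiJ arrays of the series were used only in alternative fits. Whether each array is its own animal is not given, so the tests cover only the spread among arrays. The title of the series asks how inbred strains differ in the severity of liver injury on such a diet.

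Choline and methionine supply the phosphatidylcholine with which the liver exports triglyceride, and together with folate they supply the methyl groups of S-adenosylmethionine. Livers short of them store fat, and in rodents the lasting deficiency is known for hepatocyte death, replacement by dividing hepatocytes, fibrosis and, later, tumours. C3H/HeJ mice are known for frequent spontaneous liver tumours in males and for an inactivating mutation of the endotoxin receptor Tlr4. A/J mice are known for a loss-of-function allele of the complement gene Hc and a disrupted dysferlin gene, Dysf. The strains also carry different haplotypes of the major histocompatibility complex (MHC).

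Every level below is the log2 of the array's processed signal relative to the 75th percentile of that array, so a level of 0 lies at that percentile. Every difference is C3H/HeJ minus A/J on that log2 scale, with the standard error of limma after ± (n = 4 arrays per strain). A gene is called higher or lower where the adjusted p of limma, by the Benjamini-Hochberg method over 14796 genes, was under 0.05. Each gene is represented by its brightest probe, and levels of different genes are not compared because probes differ in brightness.

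The arrays of a strain were not alike. Over 14767 genes, C3H/HeJ deficient replicate 4 had a mean correlation of 0.983 with the other C3H/HeJ deficient arrays and of 0.978 with the C3H/HeJ control arrays, while the correlation of the other deficient arrays with those controls lay between 0.942 and 0.964. A/J deficient replicate 4 likewise had 0.987 with its own group and 0.986 with the A/J controls. By this measure both replicates 4 were the deficient arrays nearest to the controls of their strain. The median SD over genes was 0.242 in the C3H/HeJ deficient group and 0.182 in the A/J deficient group. A/J deficient replicate 1 held a pancreas signal, with a mean level of pancreas markers of 4.31 above their mean over the 16 arrays of these strains, against 0.04 to 0.54 on the other A/J deficient arrays and -1.01 to -0.80 on the C3H/HeJ deficient arrays. Among the controls, A/J replicate 4 stood apart in several lists: its level of H19 was 3.98, against -4.67 to -3.66 on the other A/J control arrays. The share of gene spots well above background was 49.2% to 56.0% across the 8 arrays, and 0 were saturated. The 8 arrays lay on 3 slides, which held 2 C3H/HeJ and 1 A/J, 1 C3H/HeJ and 2 A/J, and 1 of each. Hepatocyte markers were bright in both strains: Alb, serum albumin, had levels of 10.30 to 10.98 in C3H/HeJ and 10.69 to 11.08 in A/J deficient livers.

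On the deficient diet 2338 genes differed between the strains, 15.8% of those tested: 1316 (8.89%) were higher and 1022 (6.91%) lower in C3H/HeJ. Of these, 1002 differed at least 2-fold, 639 of them higher. The median difference over all genes was -0.04. Counts of called members of a list, below, are to be read beside the shares of 8.89% higher and 6.91% lower. The count of 2338 depended on single arrays. It was 3190 without C3H/HeJ replicate 4 and 1564 without C3H/HeJ replicate 3, and leaving out any other array gave 1607 to 1868. Without both replicates 4 it was 2489.

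**Figure D1:**
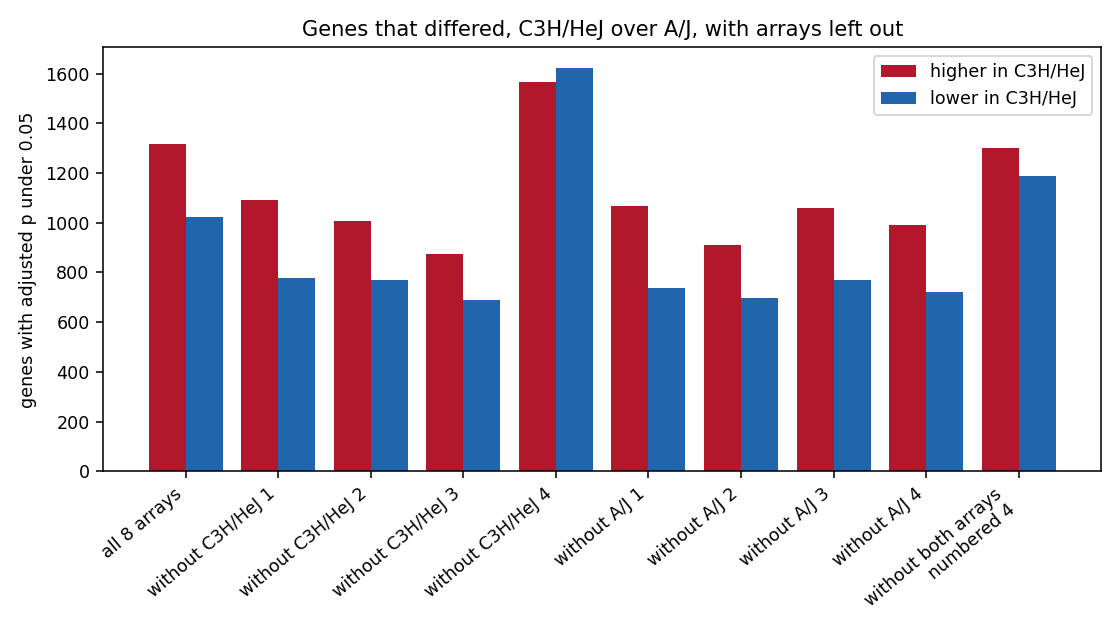
Number of genes called higher and lower in C3H/HeJ than in A/J deficient livers with all 8 arrays and with each array, or both replicates 4, left out. Leaving out C3H/HeJ replicate 4 gave the largest count, 3190, and leaving out C3H/HeJ replicate 3 the smallest, 1564.

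The same comparison on the control diet called 2970 genes (20.1%), 1686 higher (11.4%) and 1284 lower (8.68%) in C3H/HeJ. Of the genes called on the deficient diet, 1221 were called on the control diet in the same direction, 52.2% of the deficient-diet calls and 41.1% of the control-diet calls. A further 1096 were called on the deficient diet and not on the control diet, which by itself does not show that the strain difference depends on the diet. The test of that dependence, the interaction over 16 arrays, called 1.71% of the genes, 172 with a difference more positive on the deficient diet (1.16%) and 81 with one more negative (0.547%). Of the deficient-diet calls, 169 passed this test too, 128 in the positive direction and 41 in the negative. The interaction count was the most dependent on single arrays: it was 1010 without C3H/HeJ deficient replicate 4, 84 without A/J deficient replicate 2, 116 without A/J deficient replicate 4, 130, 106 and 129 without C3H/HeJ deficient replicates 1, 2 and 3, 126 and 155 without A/J control replicates 2 and 4, and 159 and 135 without C3H/HeJ control replicates 2 and 3.

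**Figure D2:**
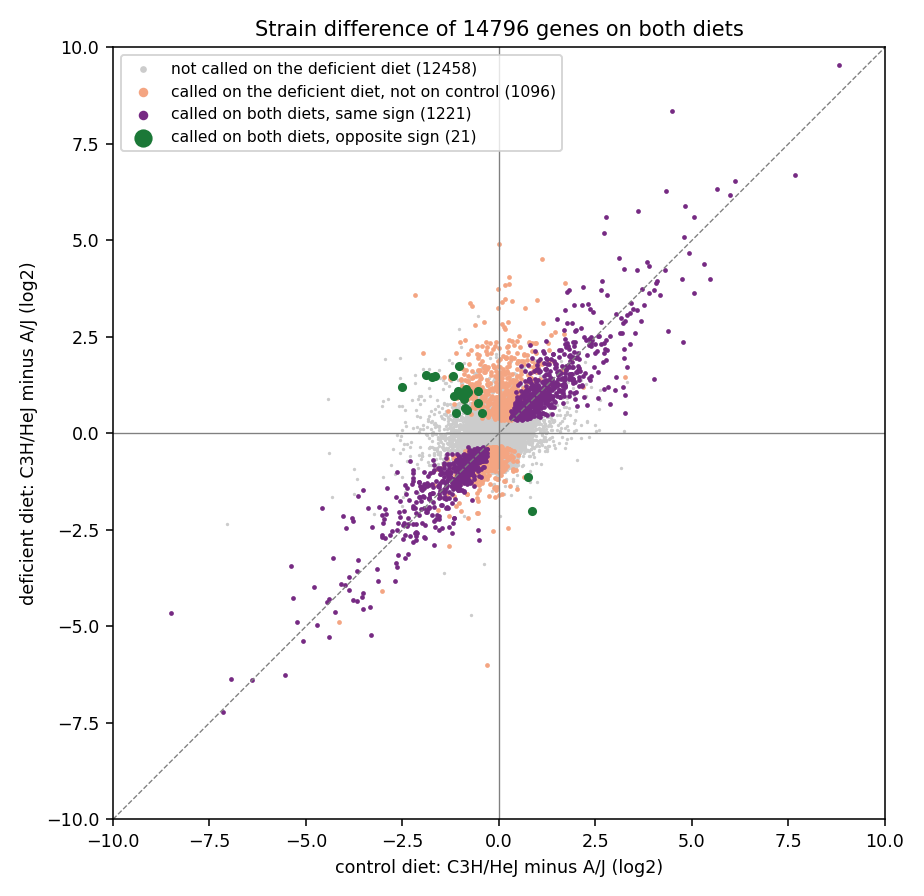
Difference between C3H/HeJ and A/J of each of 14796 genes (log2) on the deficient diet and on the control diet, coloured by the diet or diets on which the gene was called. Of the genes called on both diets, 1221 have the same sign and 21 opposite signs.

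Genes of DNA replication and mitosis formed the list with the most calls. Of 40 members 35 were tested, 24 were called higher in C3H/HeJ and 0 lower, also at an unadjusted p under 0.05 in limma, and the median difference was 1.09. On 25 members every C3H/HeJ array lay above every A/J array, against 11.4% of all genes. The mean level of the list over its members, relative to their mean over 16 arrays, was 0.96, 1.22, 1.11 and 1.05 in C3H/HeJ deficient livers and 0.40, 0.05, 0.27 and -0.19 in A/J deficient livers. All C3H/HeJ arrays, replicate 4 included, lay above all A/J arrays. Between 20 and 24 members were called with any 1 array left out, and 23 without both replicates 4.

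Tpx2 (chromosome 2, 152719476 to 152719535, NCBI37), which nucleates spindle microtubules and activates the kinase Aurka, had levels of -1.94, -1.52, -1.98 and -1.84 in C3H/HeJ livers and -3.93, -4.24, -3.90 and -4.27 in A/J livers. The strains were far apart, with little spread within either, although only 2 of the A/J arrays were well above background. The difference was 2.27 ± 0.15 (adjusted p = 3e-05). Rrm2 (chromosome 12, 25398824 to 25398883), the small subunit of the reductase that makes deoxyribonucleotides, had 1.68, 2.03, 2.19 and 2.10 in C3H/HeJ and 0.74, 0.09, 0.50 and 0.21 in A/J livers. It was higher by 1.61 ± 0.17 (3.06-fold, adjusted p = 0.00046), again with no overlap. Kif20a, a kinesin of the cleavage furrow, had 0.26, 0.81, 0.12 and 0.63 in C3H/HeJ and -0.97, -1.59, -1.21 and -1.40 in A/J livers, a difference of 1.75 ± 0.19. Every C3H/HeJ value of these genes exceeded every A/J value.

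The proliferation antigen Mki67 had 1.49, 1.66, 1.26 and 1.53 in C3H/HeJ livers and 0.87, 0.31, 0.62 and -0.24 in A/J livers, a difference of 1.09 ± 0.23 (adjusted p = 0.013). The groups did not overlap, and A/J replicate 4 was the lowest. Among the S-phase members, Mcm6 of the replicative helicase was higher by 1.34 ± 0.21, Mcm2 and Mcm5 by 0.84 and 0.78, the polymerase subunit Pole by 1.20 and the helicase assembly factor Gins2 by 1.19. Among the mitotic members, the kinase Cdk1 was higher by 1.16, its cyclins Ccna2, Ccnb1 and Ccnb2 by 1.11, 1.11 and 1.14, the kinases Plk1 and Aurka by 1.06 and 0.89, while the checkpoint kinase Bub1, above background on no A/J array, was at least 1.71-fold higher (mean levels of -3.65 in C3H/HeJ and -5.15 in A/J livers). Among the called members, Bub1 and Tpx2 passed the filter through C3H/HeJ alone, Tpx2 with 2 A/J arrays above background. The list median was 1.06 with Bub1 at its bound. Foxm1, the transcription factor of late cell cycle genes, was higher by 1.06 ± 0.13. The other called members were Ube2c, Birc5, Cdc20, Cdt1, Cenpe, Top2a and Prc1, with differences between 0.84 and 1.46.

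**Figure D3:**
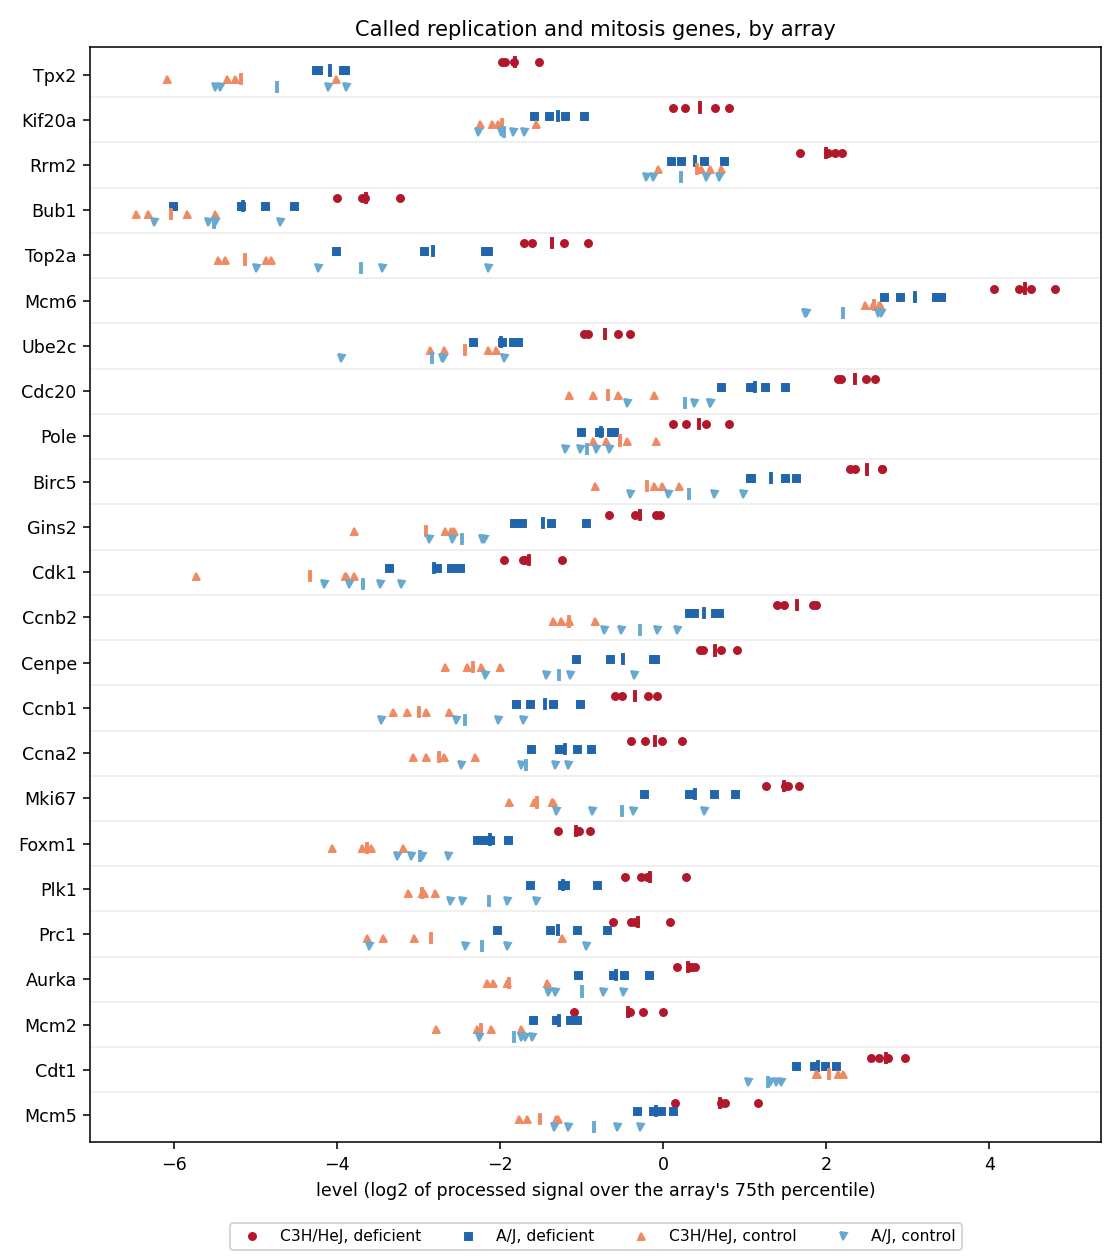
Log2 level of the 24 replication and mitosis genes called higher in C3H/HeJ deficient livers, per array, in C3H/HeJ and A/J livers on the deficient and on the control diet, with strokes at the group means. For each of the 24 genes the mean of the C3H/HeJ deficient arrays lies above that of the A/J deficient arrays.

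On the control diet the picture was another: 2 of the 35 members were higher and 5 lower in C3H/HeJ, with a median of -0.51. The mean level of the list was -1.09 to -0.61 in C3H/HeJ controls and -0.83 to 0.06 in A/J controls, where replicates 2 and 4 were the highest. The control-diet counts changed with single arrays: 0 were lower without A/J control replicate 2 or without C3H/HeJ control replicate 1, 1 without A/J control replicate 4 or C3H/HeJ control replicate 3, 2 without C3H/HeJ control replicate 2, and 8 without A/J control replicate 1. Tpx2 was dim in the controls, with mean levels of -5.18 in C3H/HeJ and -4.73 in A/J. Its interaction is therefore not an exact size. The interaction was positive and called for 15 members, among them Tpx2 (2.71), Kif20a (1.77), Rrm2 (1.41) and Mki67 (2.13). It was called for 7 to 18 members with 1 array left out: 7 without A/J deficient replicate 2 or 4, C3H/HeJ deficient replicate 2, A/J control replicate 2 or C3H/HeJ control replicate 2, 8 or 9 without C3H/HeJ deficient replicate 1 or 3, C3H/HeJ control replicate 1 or A/J control replicate 4, and 18 without C3H/HeJ deficient replicate 4. It was called for 6 with spike-in scaling, 7 with the replicate number as a block and 9 with the slide as a block, and the slide block left 0 lower members on the control diet, where a fit of all 24 arrays gave 12. The median interaction was between 1.26 and 1.76 with 1 array left out.

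The promoters of 3 called members are shown because late cell cycle genes are known for CCAAT boxes and for the CHR element to which the DREAM complex and Foxm1 are recruited. Each is the 250 bases before the RefSeq transcription start in build GRCm38.p6, and capitals mark matches on either strand to CCAAT, which reads ATTGG on the other strand, or to the CHR letters TTTGAA, which read TTCAAA there. In Ube2c a CCAAT and an ATTGG overlap in the run CCAATTGG.
Rrm2, chr12:24708004-24708253, plus strand: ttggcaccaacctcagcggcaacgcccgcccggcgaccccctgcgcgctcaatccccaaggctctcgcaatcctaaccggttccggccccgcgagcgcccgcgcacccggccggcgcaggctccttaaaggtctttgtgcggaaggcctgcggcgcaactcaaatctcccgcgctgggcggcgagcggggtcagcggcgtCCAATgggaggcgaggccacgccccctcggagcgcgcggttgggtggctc
Ccnb2, chr9:70421555-70421804, minus strand: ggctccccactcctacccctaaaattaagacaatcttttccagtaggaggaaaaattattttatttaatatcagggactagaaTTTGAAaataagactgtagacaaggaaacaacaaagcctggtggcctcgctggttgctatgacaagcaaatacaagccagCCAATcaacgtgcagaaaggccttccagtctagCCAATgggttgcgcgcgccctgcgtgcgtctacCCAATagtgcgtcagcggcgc
Ube2c, chr2:164769679-164769928, plus strand: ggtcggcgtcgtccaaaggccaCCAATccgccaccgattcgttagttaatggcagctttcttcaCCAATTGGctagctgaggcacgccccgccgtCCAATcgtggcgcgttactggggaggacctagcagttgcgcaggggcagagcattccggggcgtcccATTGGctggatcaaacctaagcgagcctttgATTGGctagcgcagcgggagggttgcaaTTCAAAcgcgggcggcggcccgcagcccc
Of 18 called members with a RefSeq promoter, 16 held CCAAT (88.9%, against 34.5% of all 27025 promoters), 7 held TTTGAA (38.9%, against 16.3%) and 3 held the E2F letters GCGCGAAA (16.7%, against 0.255%). These are matches of letters, not measured binding. Members of the list that were not called were not compared, so these shares say nothing about the strain difference.

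Regulators of the G1 phase follow. Of 21 tested members of 22, 7 were higher and 0 lower (2 at an unadjusted p under 0.05), with a median of 0.10. E2f2, an activator of S-phase genes, was higher by 1.01 ± 0.17, the inhibitor Cdkn2b by 1.07 ± 0.17 and the pocket protein Rb1 by 0.56 ± 0.10, so that activators and inhibitors were both among the calls. The others were Ccne1, E2f1, Rbl1 and Cdkn2d. The count was 4 with spike-in scaling, no background filter or the slide as a block, and without A/J replicate 4, C3H/HeJ replicate 2 or C3H/HeJ replicate 3. The cyclin Ccnd1 was not called (4.82, 5.37, 4.49 and 4.41 in C3H/HeJ and 4.45, 4.21, 4.39 and 3.81 in A/J livers, adjusted p = 0.15), nor was the inhibitor Cdkn1a (-0.50, adjusted p = 0.33). Both had strain differences that depended on the diet: on the control diet they were lower in C3H/HeJ by 1.54 and 4.40, and the interactions were 2.10 ± 0.36 and 3.90 ± 0.57. Of 23 p53 and DNA damage genes 2 were higher, among them Brca2 of homologous recombination by 0.91, and the nuclease gene Aen was lower by 0.56, with a median of -0.05. Aen lost its call without any of A/J replicates 1 to 3 or C3H/HeJ replicates 1 to 3. Among 13 tested DNA methylation enzymes and readers, 3 were higher and 0 lower (0 at an unadjusted p under 0.05), with a median of 0.05: Uhrf1, which guides maintenance methylation to replicated DNA, by 1.63 ± 0.36, Dnmt3b by 0.63 and Dnmt3a by 0.53. The other probes of Dnmt3b differed by -0.10 and 0.32, and it was not called with the mean of probes. Only 1 member was called with spike-in scaling, median centring, no background filter or the slide as a block, without both replicates 4, or without A/J replicate 4 or any of C3H/HeJ replicates 1 to 3.

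Genes of the fetal liver and of liver tumours were also higher in C3H/HeJ, 11 of 21 tested members of 29 and 0 lower (0 at an unadjusted p under 0.05), with a median of 1.17. The list level was 1.54, 1.85, 1.29 and 0.95 in C3H/HeJ and 0.43, 0.06, 0.50 and -0.34 in A/J deficient livers, without overlap. In the control livers 2 members were higher and 3 lower. The interaction was positive and called for 5 members, and for 2 to 9 with 1 array left out. Spink1, a trypsin inhibitor known from human liver cancer, had levels of 3.00, 3.07, 2.90 and 2.79 in C3H/HeJ and 0.12, -1.49, -0.63 and -1.59 in A/J livers. The difference of 3.84 ± 0.35 (14.3-fold, adjusted p = 0.00017) was not called in the control livers (0.15, adjusted p = 0.84), and its interaction was called (3.69, adjusted p = 0.0099). H19 (chromosome 7, 149761492 to 149761551), the imprinted fetal RNA, had 1.53, 1.87, 1.57 and 0.55 in C3H/HeJ and -2.25, -1.53, -2.08 and -2.99 in A/J livers, higher by 3.59 ± 0.35 (12.0-fold). Meg3, another imprinted RNA, was higher by 3.80 ± 0.52, and by 2.17 on the control diet. The H19 interaction did not pass (adjusted p = 0.17), and the high A/J control replicate 4 falls in it.

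The other called members were Golm1 (2.18 ± 0.42), a Golgi protein, Ly6d (2.07), the calcium-binding S100a11 (2.04) and S100a10 (0.61), Gpc3 (1.80 ± 0.51), a glypican of liver tumours, the transcription factors Sox4 (1.75 ± 0.33) and Sox9 (0.96), Anxa2 (1.60) and Akr1c18 (1.34). Gpc3, above background on 2 A/J arrays, had -2.61, -1.70, -1.96 and -3.03 in C3H/HeJ and -3.41, -4.23, -3.29 and -5.58 in A/J livers. The groups did not overlap, but replicate 4 was the lowest of each strain. The count was 7 with spike-in scaling, with no background filter or without A/J replicate 2, and 14 without C3H/HeJ replicate 4. Anxa2 too was lowest on the array numbered 4 in both strains, and Ly6d lost its call without A/J replicate 1 or 2 or any of C3H/HeJ replicates 1 to 3. Afp, alpha-fetoprotein, was not called (1.46, 2.18, 1.19 and 1.10 in C3H/HeJ and 0.91, 0.43, 0.87 and 0.65 in A/J livers, adjusted p = 0.062), although its groups did not overlap. Its interaction was called (1.79, adjusted p = 0.012).

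**Figure D4:**
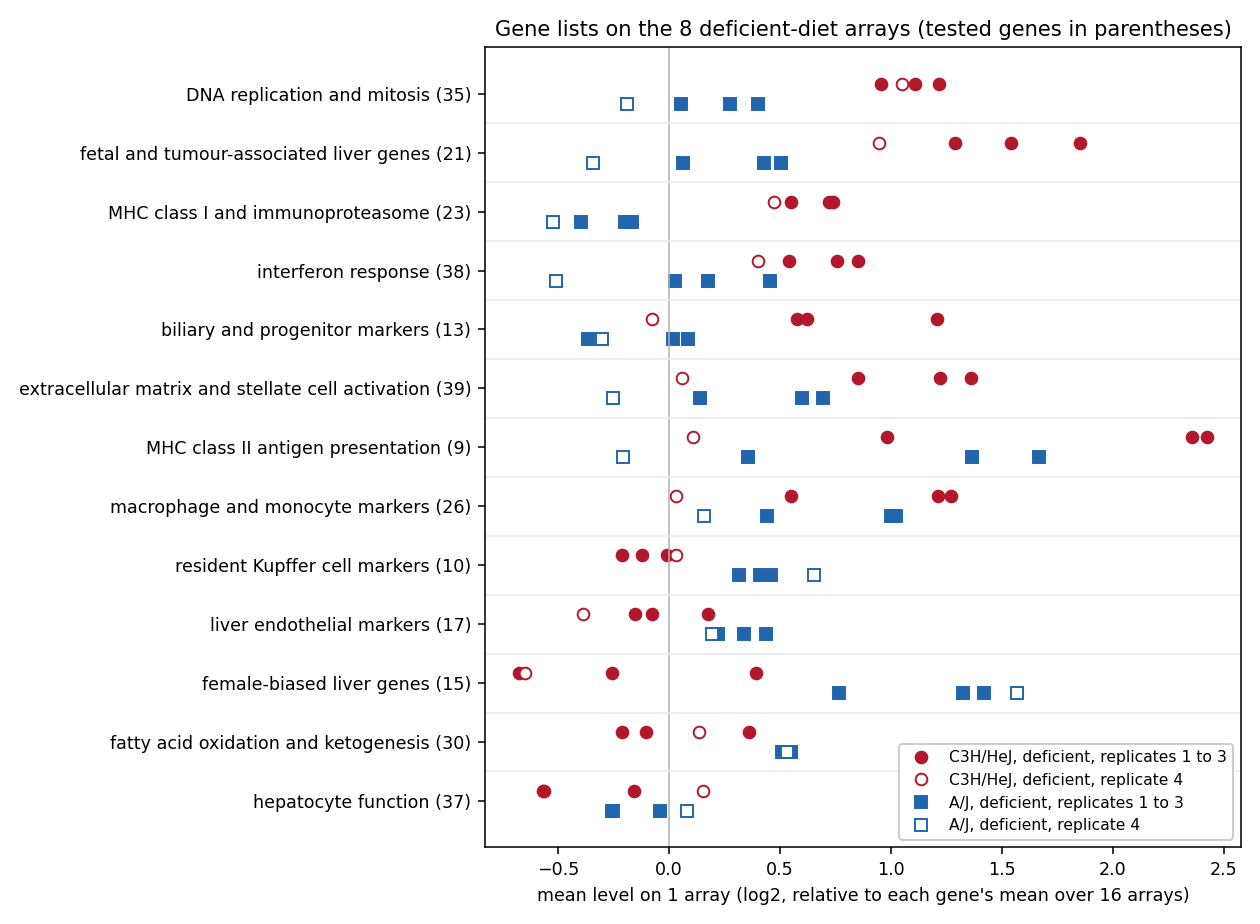
Mean log2 level of 13 gene lists on each deficient array, relative to the mean of each gene over the 16 arrays of both strains, with C3H/HeJ above A/J and open symbols for replicates 4. The levels of replication and mitosis do not overlap between the strains, while those of matrix and MHC class II genes do.

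MHC class I and interferon genes made up a further group. Of 23 tested MHC class I and immunoproteasome genes, 12 were higher and 1 lower in C3H/HeJ, with a median of 0.66. H2-T22, a nonclassical class I gene on chromosome 17, had 4.21, 4.24, 3.79 and 4.00 in C3H/HeJ and 2.02, 1.71, 1.75 and 1.42 in A/J livers, higher by 2.34 ± 0.16 (adjusted p = 4e-05). H2-D1, a classical class I gene, had 5.93, 5.76, 5.46 and 5.32 in C3H/HeJ and 7.44, 7.30, 7.39 and 7.21 in A/J livers, lower by 1.72 ± 0.15. Neither pair of groups overlapped, and both genes differed the same way on the control diet (1.76 and -2.32).

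H2-Q1, named after its values were seen, was also called higher, with only 1 A/J array above background. Probes of such polymorphic and near-identical genes can bind the alleles of the strains unequally, so these differences can be of binding or of RNA, which cannot be told apart here. Psmb9, an immunoproteasome subunit, was higher by 1.11 ± 0.24 and the peptide transporter gene Tap2 by 0.61, while both were not called on the control diet. Their interactions did not pass in limma (adjusted p of 0.11 and 0.15). On the control diet 7 members of the list were higher and 1 lower, and the interaction passed for 0. Nlrc5, the transactivator of class I genes, was higher by 1.18. The number of higher members was 9 to 14 with 1 array left out.

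Of 38 tested interferon response genes, 14 were higher and 1 lower, with a median of 0.60 on the deficient diet and 0.10 on the control diet. Ifit3, an antiviral binder of RNA-sensing complexes, had 3.76, 3.81, 3.81 and 3.37 in C3H/HeJ and 2.60, 2.05, 2.30 and 1.31 in A/J livers, higher by 1.62 ± 0.26 (adjusted p = 0.0036). The C3H/HeJ arrays were close together and all above the A/J arrays. Oas1a, a sensor of double-stranded RNA, was higher by 1.40 ± 0.21, with 4.73, 4.72, 4.48 and 4.63 in C3H/HeJ and 3.59, 3.26, 3.52 and 2.58 in A/J livers. Its difference was as large on the control diet, 1.53. Irf7, the transcription factor that amplifies the response, was higher by 0.92 ± 0.16, its inhibitor Usp18 by 1.18 ± 0.19 and the ubiquitin-like Isg15 by 0.78.

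Eif2ak2, the RNA-activated kinase, was the exception, with 0.35, 0.22, 0.22 and 0.46 in C3H/HeJ and 1.35, 1.43, 1.35 and 1.11 in A/J livers, lower by 0.99 ± 0.11. On the control diet 5 members were higher and 4 lower, and the interaction passed for 1 member. The count of higher members was 7 without C3H/HeJ replicate 1, 8 without C3H/HeJ replicate 2 or 3 or A/J replicate 3, 9 without A/J replicate 4, 6 when arrays were scaled on spike-in probes, 8 with no background filter and 7 in a fit of 16 arrays. Isg15 was among those that lost their calls. Ifi202b, an interferon-induced gene absent from some strains, was lower in C3H/HeJ on both diets (-5.37), but its C3H/HeJ levels of 0.99, -4.60, -6.33 and -6.90 spread widely and the call was lost without any 1 array other than C3H/HeJ replicate 1.

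**Figure D5:**
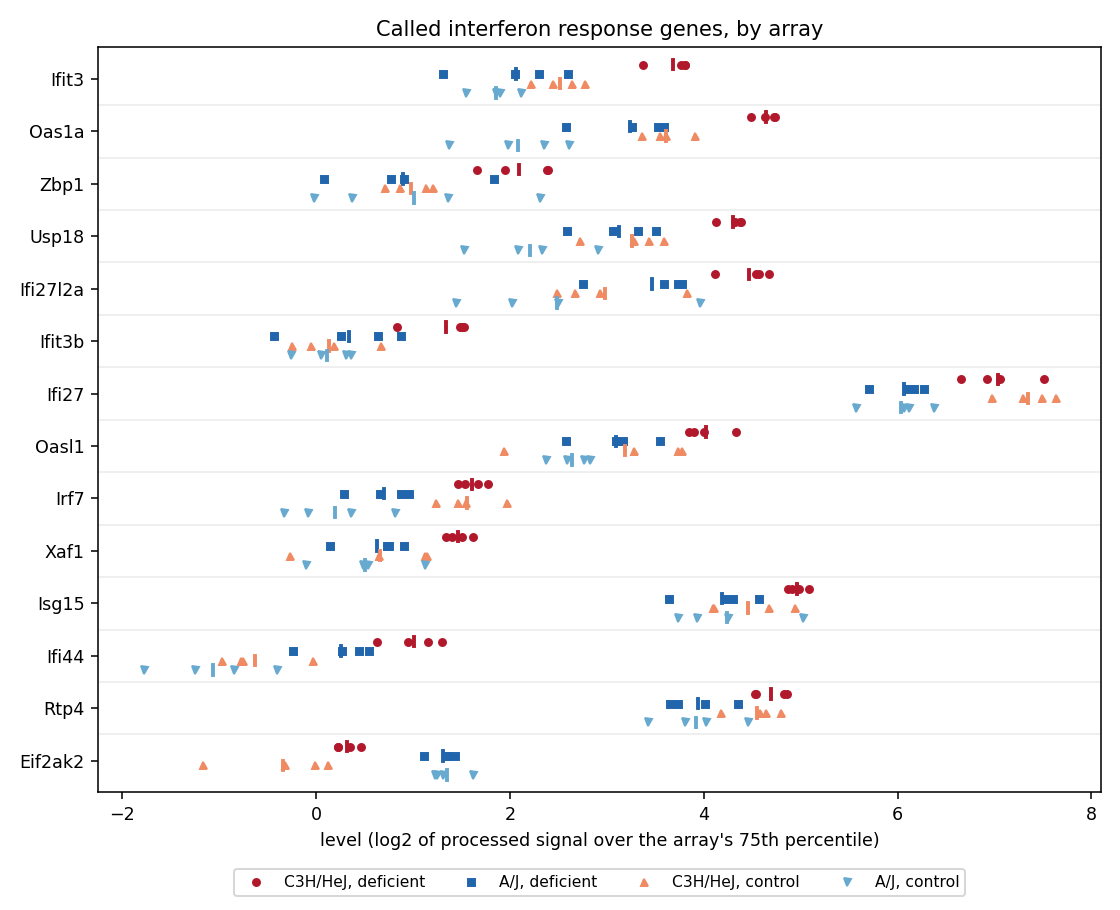
Log2 level of 14 of the 15 interferon response genes called between the strains on the deficient diet, per array, in both strains and on both diets, with strokes at the group means. The mean of the C3H/HeJ deficient arrays is above that of the A/J deficient arrays for every gene drawn except Eif2ak2, where it is below.

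Interferon-stimulated genes are known for a promoter element called the ISRE. The promoters of Oas1a, Ifit3 and Irf7 are shown, as 250 bases before the RefSeq start in GRCm38.p6, with capitals at matches on either strand to GAAA, any 2 bases and GAAA again (TTTC, any 2 bases and TTTC on the other strand). The matches of Oas1a overlap, and Irf7 has none in this window.
Oas1a, chr5:120907526-120907775, minus strand: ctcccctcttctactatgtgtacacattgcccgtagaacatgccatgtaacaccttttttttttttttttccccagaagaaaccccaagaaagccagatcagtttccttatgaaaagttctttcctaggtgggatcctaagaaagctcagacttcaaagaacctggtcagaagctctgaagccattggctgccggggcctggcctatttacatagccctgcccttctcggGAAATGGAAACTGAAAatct
Ifit3, chr19:34583279-34583528, plus strand: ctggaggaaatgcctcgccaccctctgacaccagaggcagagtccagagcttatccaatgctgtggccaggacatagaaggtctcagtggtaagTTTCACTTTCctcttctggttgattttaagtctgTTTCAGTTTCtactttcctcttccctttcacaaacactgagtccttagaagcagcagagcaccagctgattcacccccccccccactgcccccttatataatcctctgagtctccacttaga
Irf7, chr7:141266425-141266674, minus strand: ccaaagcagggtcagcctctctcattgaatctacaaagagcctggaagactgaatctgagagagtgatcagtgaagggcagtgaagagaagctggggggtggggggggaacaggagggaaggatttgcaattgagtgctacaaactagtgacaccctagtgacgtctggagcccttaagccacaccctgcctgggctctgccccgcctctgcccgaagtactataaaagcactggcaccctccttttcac
The letters were found in 4 of 8 called members with a RefSeq promoter, in 2 of 7 called MHC class I members (28.6%) and in 3.04% of all promoters. Here too, members that were not called were not compared.

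Few matrix, inflammation and myeloid genes passed the test. Of 39 tested matrix and stellate cell genes, 1 was higher, Tgfb2 by 1.49 ± 0.38 with only 1 A/J array above background, and 0 lower, while 15 had an unadjusted p under 0.05. Col1a1, the main fibrillar collagen chain, had 4.50, 4.68, 4.13 and 2.19 in C3H/HeJ and 2.72, 1.34, 2.82 and 0.37 in A/J livers. Replicate 4 was the lowest of both groups, the groups overlapped, and the difference of 2.06 ± 0.69 did not pass (adjusted p = 0.078). Without C3H/HeJ replicate 4 the list had 16 higher members, without both replicates 4 it had 12, and without any of A/J replicates 1, 2 and 4 or C3H/HeJ replicates 1 to 3 it had 0. The median of 0.54 was -0.17 between the arrays of slide 1, which held C3H/HeJ replicates 3 and 4 and A/J replicate 3, and 1.12 and 0.72 within slides 2 and 3. Of 12 matrix proteases, Plat, tissue plasminogen activator, was higher by 2.43 ± 0.54 with 2 A/J arrays above background, and Mmp15 by 0.74, and 0 were lower (0 at an unadjusted p under 0.05), with a median of 0.25. Of these, 0 were called without A/J replicate 2, and 1 without A/J replicate 4 or C3H/HeJ replicate 1. Timp1 and Acta2, markers of stellate cell activation, were not called (adjusted p of 0.17 and 0.053).

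Of 9 tested MHC class II genes 0 were called, at an unadjusted p under 0.05 too, and the list level ran from 0.11 to 2.42 in C3H/HeJ and from -0.21 to 1.67 in A/J livers. On the control diet 7 of the 9 were lower in C3H/HeJ, with a median of -2.06, and H2-Ab1 had an interaction of 3.73 (adjusted p = 0.043). Of 20 chemokines and mediators 0 were called (1 higher at an unadjusted p under 0.05), with a median of 0.45. Without C3H/HeJ replicate 4, 1 was lower. Of 14 T and NK cell markers 0 were called (1 at an unadjusted p under 0.05), with a median of 0.11, and 1 was lower without that array. Of 26 macrophage and monocyte markers 2 were higher and 2 lower, against 8.89% and 6.91% of all genes, with a median of 0.09. Ly6c1 was higher by 0.70 and the endotoxin co-receptor Cd14 by 1.74, and the mannose receptor Mrc1 was lower by 0.77 and Mpeg1 by 0.71. With 1 array left out, 1 was higher without A/J replicate 2 or 4 or any of C3H/HeJ replicates 1 to 3 and 4 without C3H/HeJ replicate 4, and 1 was lower without any of A/J replicates 1 to 3 or C3H/HeJ replicates 3 and 4. Of 14 lipid-associated macrophage markers Cd9 was higher by 1.10 and Atp6v0d2 lower by 1.48, with a median of 0.16. Cd9 lost its call without A/J replicate 2 or any of C3H/HeJ replicates 1 to 3, 2 were higher without C3H/HeJ replicate 4, and 2 were lower without C3H/HeJ replicate 2. Spp1, Gpnmb and Trem2 of this list were not called, with adjusted p of 0.28, 0.70 and 0.87, nor was Cd68 (0.80).

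Of the markers of resident Kupffer cells, the macrophages of the liver sinusoids, all 10 tested members had a negative difference, with a median of -0.50, and 4 were called lower: Clec4f by 0.77 ± 0.15, Id3 by 0.59, Vsig4 by 0.59 and Hmox1 by 0.50. Clec4f, a lectin found on Kupffer cells, had 4.51, 4.30, 4.25 and 4.65 in C3H/HeJ and 5.04, 5.20, 5.01 and 5.55 in A/J livers. The groups did not overlap, as for 10.2% of all genes with every C3H/HeJ array below every A/J array. On the control diet 6 members were lower, with a median of -0.60. It had 2 calls without A/J replicate 2, with spike-in scaling, no background filter or the slide as a block, and 1 in a fit of all 24 arrays. In bulk tissue fewer cells of a type and less RNA per cell cannot be told apart.

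Of the endothelial markers 7 of 17 tested were lower and 0 higher (1 at an unadjusted p under 0.05), with a median of -0.46, and of -0.45 on the control diet. Dnase1l3, a DNase of sinusoidal endothelium, had -0.13, -0.55, -0.41 and -0.70 in C3H/HeJ and 1.44, 1.61, 1.25 and 1.57 in A/J livers, lower by 1.91 ± 0.15. The receptor Kdr was lower by 0.68 ± 0.13, Tek by 0.88, the orphan receptor Gpr182 by 0.77, Oit3 by 0.70, Clec4g by 0.60 and Cdh5 by 0.46. Between 5 and 8 were lower with any 1 array left out, and 2 with spike-in scaling.

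Innate immune receptors differed in both directions, 6 higher and 3 lower of 24 tested, against 8.89% higher and 6.91% lower over all genes, with a median of 0.22. The higher ones numbered 3 with spike-in scaling, with no background filter and without A/J replicate 4 or any of C3H/HeJ replicates 1 to 3. Tlr4 itself, mutated in C3H/HeJ, was lower (-1.98, -1.87, -2.52 and -2.95 in C3H/HeJ and -0.81, -1.09, -0.82 and -1.44 in A/J livers, -1.29 ± 0.26), as was Tlr1 by 2.19 ± 0.43. The groups of Tlr4 did not overlap, and it was lower on the control diet too (-1.85). Naip2, a sensor of bacterial proteins, was higher by 2.25 ± 0.20, Nlrp1b by 1.87 (with 1 A/J array above background), Tlr12 by 0.92, Tlr3 by 0.86 (with 2) and the Tlr4 partner Ly96 by 0.44. Nlrp1a was lower by 1.19 in its brightest probe, while its other probe differed by 0.49 in the opposite direction.

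Of 13 biliary and progenitor markers 3 were higher, Prom1 by 1.72, the keratin Krt19 by 1.59 and Sox9 by 0.96, and 0 lower (1 at an unadjusted p under 0.05), with a median of 0.82. These rested on few arrays: 0 were called with spike-in scaling, with no background filter and without A/J replicate 1, 1 without A/J replicate 4 or C3H/HeJ replicate 1 or 3, and 7 higher and 1 lower without C3H/HeJ replicate 4. Krt8, the hepatocyte and epithelial keratin, was the called member of 5 mesothelial markers, with 8.33, 8.33, 7.99 and 7.82 in C3H/HeJ and 7.35, 6.82, 7.29 and 6.66 in A/J livers (1.09 ± 0.20). The median of that list was 0.56, 0 were lower (0 at an unadjusted p under 0.05), and 2 were higher without A/J replicate 4. The interaction of Krt8 was 1.14 (adjusted p = 0.026).

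Among 9 B and plasma cell markers the adaptor gene Blnk was higher by 2.98 ± 0.53 and Jchain lower by 1.94 ± 0.25, both in the same direction on the control diet, and the list median was -0.25. The summed linear level of the B cell list, 53.6 to 75.4 in C3H/HeJ and 26.1 to 30.4 in A/J deficient livers, was 22.3 to 34.0 in C3H/HeJ and 21.6 to 24.9 in A/J livers without Blnk, where the groups overlap. Of 7 neutrophil markers, with a median of -0.20, Lcn2 was higher by 2.17 and 0 were lower (0 at an unadjusted p under 0.05), and its call was lost without A/J replicate 2 or any of C3H/HeJ replicates 1 to 3. Lcn2 is also a member of the acute phase list below, where the same call is counted again. S100a8 was not called (adjusted p = 0.77).

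Counts of called lipid genes stand here beside 8.89% higher and 6.91% lower over all genes. Of 30 fatty acid oxidation and ketogenesis genes 6 were lower and 0 higher (0 at an unadjusted p under 0.05), with a median of -0.27. Cyp4a14 (chromosome 4, 115158914 to 115158973), a fatty acid omega-hydroxylase and classical target of PPAR-alpha, had 2.15, 3.52, 4.28 and 3.34 in C3H/HeJ and 7.80, 8.31, 7.85 and 7.97 in A/J livers, lower by 4.66 ± 0.39. The gap on the control diet was larger (-8.49), and the interaction of 3.84 was called (adjusted p = 0.038). Cyp4a10 was lower by 2.62 ± 0.31, the pantetheinase Vnn1 by 1.34 and the peroxisomal Ehhadh by 0.78. Within slide 1 the median of the list was 0.01, and within slides 2 and 3 it was -0.59 and -0.50.

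Pparg, the adipogenic nuclear receptor that appears in fatty livers, had 0.46, 0.40, -0.03 and -0.83 in C3H/HeJ and 2.60, 2.29, 2.93 and 2.27 in A/J livers, lower by 2.52 ± 0.29 (adjusted p = 0.00064) and by 2.78 on the control diet. Of 19 lipid droplet and PPAR-gamma target genes, Acot1 was lower too, by 1.53, and the droplet protein Plin3 higher by 0.57. The list median was -0.23. With 1 array left out, 2 were higher and 4 lower without C3H/HeJ replicate 4, 2 were higher without A/J replicate 1, and 0 without A/J replicate 2 or 3 or C3H/HeJ replicate 2 or 3. The droplet coats Plin2 (0.34, adjusted p = 0.083) and Cidec (0.81, adjusted p = 0.41) and the fatty acid transporter Cd36 (-0.15) were not called.

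In fatty acid and triglyceride synthesis 2 of 23 were higher and 0 lower (2 at an unadjusted p under 0.05), with a median of 0.14. Fasn, fatty acid synthase, had 3.15, 1.71, 3.57 and 2.98 in C3H/HeJ and 1.04, 1.04, 0.79 and 2.08 in A/J livers, a difference of 1.61 ± 0.42 with overlapping groups. Elovl1 was higher by 0.42. The list had 0 higher members without any of A/J replicates 1 to 3 or C3H/HeJ replicates 1, 3 and 4, and 4 without C3H/HeJ replicate 2, while 1 was lower without C3H/HeJ replicate 4. Scd1 (1.20) was not called (adjusted p = 0.061). Of 23 lipoprotein genes Apoa4 was higher by 0.95 ± 0.18, against 2.20 on the control diet, and the receptor gene Vldlr lower by 2.46 ± 0.28 and Lcat by 0.74, with a median of -0.15. Lower members numbered 1 without any of A/J replicates 2 to 4 or C3H/HeJ replicates 1 to 3. Mttp and Apob, which assemble very low density lipoprotein, had differences of -0.06 and -0.11 (adjusted p of 0.82 and 0.72).

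Of 23 cholesterol synthesis genes 1 was higher and Hmgcs1 was lower by 1.05, with a median of 0.15. Neither was called without A/J replicate 1, 3 or 4 or C3H/HeJ replicate 1, and 1 of the pair at most without C3H/HeJ replicate 3 or 4 or A/J replicate 2. Of 23 bile acid genes 3 were higher (the exporter Slc51b by 2.36 ± 0.31, the receptor Nr1h4 by 0.57 and Abcc2 by 0.42) and 3 lower (Abcc3 by 0.91, Slco1a4 by 0.84 and the repressor Nr0b2 by 1.23), with a median of -0.20. The total of 6 was 3, 3, 2 and 3 without A/J replicate 1, A/J replicate 2, A/J replicate 4 and C3H/HeJ replicate 2. Cyp7a1, which catalyses the first step from cholesterol to bile acids, had levels of 2.49 to 3.62 in C3H/HeJ and 1.88 to 4.12 in A/J livers and was not called.

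Among 40 tested genes of methionine, folate and choline metabolism, 2 were higher and 5 lower, with a median of 0.00. Folr2 (chromosome 7, 108988771 to 108988830), a folate receptor, had -3.19, -3.10, -3.11 and -3.10 in C3H/HeJ and 1.66, 1.68, 0.98 and 1.67 in A/J livers, lower by 4.63 ± 0.17 and by 4.24 on the control diet. Ahcy, which removes S-adenosylhomocysteine, had 3.28, 3.35, 4.35 and 4.99 in C3H/HeJ and 5.87 to 6.52 in A/J livers, lower by 2.13 ± 0.37 and by 1.61 on the control diet. No C3H/HeJ array of these genes reached the A/J arrays. The choline kinase gene Chka was lower by 0.55 and Cept1, of the last step of phosphatidylcholine synthesis, by 0.50.

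The mitochondrial folate enzyme genes Mthfd1l and Mthfd2 were higher by 1.61 ± 0.20 and 1.32 ± 0.33. With 1 array left out, 1 member was higher without A/J replicate 1, 2 or 4 or C3H/HeJ replicate 1 or 2, 4 were higher without C3H/HeJ replicate 4, and 3 were lower without A/J replicate 2. The methyl-group enzymes Mat1a (-0.26), Gnmt (-0.24), Bhmt (0.46) and Pemt (0.18) were not called, with adjusted p of 0.51, 0.73, 0.20 and 0.58.

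Counts of called genes known to differ between male and female livers stand beside 8.89% higher and 6.91% lower over all genes. Of 15 tested female-biased genes 6 were lower and 1 higher in C3H/HeJ, with a median of -1.26, and of -1.63 on the control diet. Cyp3a44 had -1.09, -1.09, -0.55 and -1.76 in C3H/HeJ and 2.51, 3.18, 3.70 and 2.47 in A/J livers. The groups did not overlap, and it was lower by 4.09 ± 0.33, Abcd2 by 2.23, Cyp2c39 by 1.76, Fmo2 by 1.26 and Cyp3a16 by 1.07. Prom1, in this list too, was the higher one, and its call was lost without A/J replicate 1, 2 or 4 or C3H/HeJ replicate 1 or 3. Without C3H/HeJ replicate 3, 10 were lower.

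Of 19 male-biased genes, with a median of 0.04, 2 were higher, against 8.89% of all genes, and 0 lower (0 at an unadjusted p under 0.05). Mup20 was higher by 0.95 ± 0.11 in its brightest probe, while its other probe differed by -0.09, and Cspg5 was higher by 1.42. Cspg5 had -1.29, -1.37, -1.16 and 0.45 in C3H/HeJ and -2.21, -2.21, -2.08 and -2.55 in A/J livers, with C3H/HeJ replicate 4 apart, and 1 member was called without A/J replicate 2, 3 or 4 or C3H/HeJ replicate 3. Hsd3b5 was not called (0.10). Of 22 genes of the growth hormone axis, the prolactin receptor Prlr and the feedback inhibitor Socs2 were lower by 2.23 ± 0.17 and 2.15 ± 0.28 and 0 were higher (0 at an unadjusted p under 0.05), with a median of -0.17. Without C3H/HeJ replicate 4, 6 were lower.

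Of 40 tested cytochromes 7 were lower and 1 higher, with a median of -0.32, and 2 were higher without C3H/HeJ replicate 1. Cyp2c55 was higher by 3.95 ± 0.34, Cyp2a22 lower by 2.20 and Cyp3a11, the main inducible drug oxidase, lower by 0.91 ± 0.15. The median was 0.42 within slide 1 and -0.99 and -0.50 within slides 2 and 3. Cyp2e1 was not called (-0.44, adjusted p = 0.19). Of 23 conjugating enzymes the glucuronosyltransferase relative Ugt3a1 was lower by 1.93 ± 0.19, and 2 were higher, among them Papss1 by 0.55. The list median was -0.16. Without C3H/HeJ replicate 4, 2 were higher and 3 lower, and without A/J replicate 2, 1 was higher and 1 lower.

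Of 37 hepatocyte function genes 0 passed (3 lower at an unadjusted p under 0.05), with a median of -0.15. The list level was -0.56, -0.57, -0.16 and 0.15 in C3H/HeJ and -0.25, -0.04, -0.26 and 0.08 in A/J livers, so that C3H/HeJ replicate 4 was the highest array. Without it 5 members were lower, and 1 was lower without C3H/HeJ replicate 3. Alb (-0.15) and Hnf4a (-0.38) were not called. Of 28 oxidative phosphorylation genes 0 passed in limma, 0 at an unadjusted p under 0.05, with a median of -0.14. Of 29 urea cycle and amino acid genes Agxt2 and Aldh4a1 were higher by 0.46 and 0.81 (1 other probe of Agxt2 differed by -0.32), with a median of 0.01 and 0 lower (1 at an unadjusted p under 0.05). Without any of A/J replicates 1 to 4 or C3H/HeJ replicates 2 and 3, 0 were higher, and without C3H/HeJ replicate 4, 1 was higher and 1 lower. Of 25 glucose genes the hexokinase Hk3 was higher by 1.87 ± 0.40, with a median of -0.02 and 0 lower (2 at an unadjusted p under 0.05), and without C3H/HeJ replicate 4, 1 was lower. Of 30 ribosomal protein genes Rps3 was higher by 1.20 and Rpl32 lower by 0.73, with a median of -0.06. Other probes of Rps3 had a median difference of -0.52.

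Acute phase genes were higher in 6 of 22 cases and lower in 0 (1 at an unadjusted p under 0.05), with a median of 0.08. Orm3, an orosomucoid, had 1.32, 3.09, 2.06 and 2.08 in C3H/HeJ and 0.07, -0.39, 0.27 and -0.79 in A/J livers, higher by 2.34 ± 0.37. Its relatives Orm2 and Orm1 were higher by 1.65 ± 0.19 and 1.43 ± 0.20, and serum amyloids Saa1 and Saa2 by 1.15 and 1.20. These genes are near-identical copies whose probes can share signal. Saa1 and Saa2 were higher on the control diet too, by 2.72 and 2.83, and their interactions of -1.57 and -1.63 did not pass in limma (adjusted p of 0.13 and 0.17). In the control livers 4 members of the list were higher, with a median of 0.30. Lcn2, in the neutrophil list too, was the other called member on the deficient diet. The count of 6 was 3 without A/J replicate 2 or C3H/HeJ replicate 3, and 3 were lower without C3H/HeJ replicate 4.

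Of 24 complement genes Hc, complement component 5, had 7.96, 7.89, 8.32 and 8.62 in C3H/HeJ and 6.02, 5.88, 5.64 and 6.06 in A/J livers, higher by 2.30 ± 0.18 and by 2.34 on the control diet. In this list 2 genes were higher and 2 lower, against 8.89% and 6.91% of all genes. C9 was higher by 1.11 and C4b lower by 1.90 ± 0.19, the list median was -0.10, and 4 were lower without C3H/HeJ replicate 4. Cfd, the fat-cell protease adipsin, was well above background on none of the C3H/HeJ arrays and on all A/J arrays, at least 14.0-fold lower in C3H/HeJ.

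Of 19 clock genes 4 were higher and 5 lower, with a median of 0.17. The activator Arntl had -2.48, -2.74, -3.25 and -2.19 in C3H/HeJ and -0.99, -0.49, -0.85 and -0.01 in A/J livers, lower by 2.08 ± 0.27, while the repressor Per3 was higher by 2.66 ± 0.20 and the output gene Dbp by 0.54. Dbp lost its call without any 1 array other than C3H/HeJ replicate 1. On the control diet Dbp differed by 3.26, with A/J control replicate 4 at 1.32 and the other A/J controls at 4.91 to 5.88. The labels give no time of day for the collection. The call of Nr1d2, counted among the 5 lower clock genes, came from a probe that the array files place on chromosome 19 (-0.95). The other probe of Nr1d2, on chromosome 14, differed by 0.04, so the call is that of the chromosome 19 probe alone. Higher clock genes numbered 7 without C3H/HeJ replicate 1 and 2 without any other array, and lower ones 3 without A/J replicate 2 or 4 or C3H/HeJ replicate 1 or 3. Of 22 iron genes the hepcidin upstream factor Hjv was higher by 0.84 and Steap3 by 0.45, and Id1 and Smad7, targets of bone morphogenetic protein signalling, were lower by 2.43 ± 0.20 and 1.34 ± 0.14, with Slc39a8 and Slc11a2 by 0.72 each. Hepcidin itself, Hamp, was not called (-0.17), and the list median was -0.11. Without any 1 array other than C3H/HeJ replicate 1, 1 iron gene was higher, and without A/J replicate 2, 2 were lower.

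Of 27 unfolded protein and amino acid stress genes 5 were lower and 1 higher, with a median of -0.13. Dnajb9 and Herpud1, of the endoplasmic reticulum, were lower by 1.43 ± 0.19 and 1.28 ± 0.18, Trib3 and Chac1, targets of Atf4, by 1.44 ± 0.21 and 1.58 ± 0.26, and Nupr1 was higher by 2.04 ± 0.46, a call lost without A/J replicate 2 or C3H/HeJ replicate 3. Trib3 and Chac1 were not called on the control diet (0.46 and 0.07). Fgf21 was not called (-0.48). Of 34 oxidative stress genes 2 were higher and 2 lower, against 8.89% and 6.91% of all genes, with a median of 0.01. The glutathione transferase Gstp1 was higher by 1.46 ± 0.19 and Ugdh by 0.70, and Gclc and Hmox1 were lower by 0.65 and 0.50. Lower ones numbered 1 without A/J replicate 2 or 4 or C3H/HeJ replicate 1 or 2, and higher ones 1 without C3H/HeJ replicate 3.

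Markers of other tissues were also examined. Of 7 tested pancreas genes 3 were lower, Cela2a, Amy2a5 and Try5, and 0 higher (0 at an unadjusted p under 0.05), with a median of -1.37. Try5, a trypsinogen, was above background on no C3H/HeJ array and had 4.72, -1.49, -1.79 and -4.09 in A/J livers, at least 17.4-fold lower in C3H/HeJ, or 5.002-fold without A/J replicate 1 and 38.4-fold without A/J replicate 4. A/J replicate 1, the array with the pancreas signal, was the highest. The calls numbered 1 without A/J replicate 2 or any of C3H/HeJ replicates 1 to 3. Of 3 tested adipose genes, with a median of 0.68, Adrb3 was higher by 2.87 and Cfd lower, and 2 were higher without A/J replicate 1. The summed linear level of the list was 22.3 to 28.1 in C3H/HeJ and 8.31 to 18.9 in A/J livers, and without Adrb3 it was 13.001 to 17.0 in C3H/HeJ and 6.73 to 17.0 in A/J livers, which overlap. Of 7 erythroid genes Slc4a1 was lower by 0.89 and 0 were higher (3 at an unadjusted p under 0.05), with a median of 0.51, and 0 were called without any of A/J replicates 2 to 4 or C3H/HeJ replicate 1.

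The largest rise among genes measured in both strains was that of Ptgds. Ptgds (chromosome 2, 25322232 to 25322291), a prostaglandin D synthase, had 1.85, 3.73, 3.31 and 1.95 in C3H/HeJ and -2.66, -2.89, -2.90 and -3.10 in A/J livers, 48.3-fold higher (5.60 ± 0.41). It differed by 2.78 on the control diet, and the interaction was 2.82 (adjusted p = 0.025). The other large rises were Gm10734 (4.68), Zfp979 (4.53), the calcium-binding S100g (4.52), Ica1l (4.43), Cyp2c55, Wfdc15b (3.88) and the protease inhibitor Slpi (3.86 ± 0.65). S100g had 3.74, 1.60, 3.71 and 1.52 in C3H/HeJ and -1.75, -1.73, -1.13 and -2.93 in A/J livers, and differed by 1.11 on the control diet, where it was not called. Slpi was not called there either (0.25). Neither S100g nor Slpi was among the 28 named genes with a called interaction.

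Among the largest falls were the predicted gene 5033406O09Rik (-6.39 ± 0.13, and -6.40 on the control diet), Hsd17b13 (-4.96 ± 0.18), Cyp4a14, Folr2, Ugt1a10 (-4.49), the calpain Capn3 (-4.33), Cyp3a44, Slc22a26 (-3.98) and Gm8909 (-3.92). Hsd17b13, a droplet-bound dehydrogenase, had another probe with a difference of 5.04 in the opposite direction, so that the sign for this gene depends on the probe.

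Some genes were above background in 1 strain alone. Tmc5 was at least 160-fold higher in C3H/HeJ by its brightest probe, with levels of 2.95, 3.05, 2.57 and 3.04 and no A/J array above background. Its other probe, also above background on no A/J array, had only -4.20 to -2.46 in C3H/HeJ, so the bound is that of the brighter probe. Dysf (chromosome 6, 84160977 to 84161036) was at least 26.1-fold and Dkk4, a secreted inhibitor of Wnt signalling, at least 26.0-fold higher, and Mab21l4 had the next largest bound. A830052D11Rik was at least 25.0-fold and Ttll2 at least 10.1-fold lower. Such bounds set each dim array at the higher of its own signal and the lowest signal among its probes above background. In all, 34 called genes were dim on every C3H/HeJ array and 67 on every A/J array. Igsf23, above background on 2 A/J arrays, and the melanocortin receptor Mc3r, above background on 1, were other large rises shared with the control diet, and Raet1a, above background on 1 C3H/HeJ array, another large fall.

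The genes called on both diets with opposite signs numbered 21. Of these 19 were higher in C3H/HeJ on the deficient diet and lower on the control diet, among them the cell cycle genes Kif2c (1.51 and -1.90), Ska1 (1.48 and -1.66), Ccna2, Ccnb2, Plk1, Aurka, E2f1, Rbl1, Sgo1, Cenpi, Tacc3 and Ckap2, together with Ddias (1.46 and -1.72), Tspan8 (1.73 and -1.04), the matrix link protein Hapln1 (1.20 and -2.52) and Tgfb2. Kif2c, a microtubule depolymerase, had -2.85, -2.50, -3.19 and -2.43 in C3H/HeJ and -3.40, -4.99, -4.40 and -4.22 in A/J deficient livers, against -6.59 to -5.37 in C3H/HeJ and -4.41 to -2.77 in A/J controls. The filter asked for signal on deficient arrays only. Mean levels in C3H/HeJ controls were -5.88 for Kif2c and Ska1, -5.81 for Cenpi, -5.74 for Ckap2, -5.68 for Hapln1 and -5.19 for Tgfb2. Such levels were at least as dim as that of Bub1 in A/J deficient livers (-5.15), which was above background on no array. The control differences and interactions of these genes are therefore not exact sizes. Adgrf1 (-2.02 and 0.86) and Gucy2c (-1.14 and 0.75) were the 2 with the reverse pattern. Ddias lost its deficient-diet call without A/J replicate 1 or 4 or any of C3H/HeJ replicates 1 to 3, Hapln1 without A/J replicate 1, 3 or 4 or C3H/HeJ replicate 1, 3 or 4, and Adgrf1 without any of 7 arrays, C3H/HeJ replicate 4 being the exception.

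Other strain differences that depended on the diet were those of Hkdc1, a hexokinase (2.36 on the deficient and -1.01 on the control diet, interaction 3.37, adjusted p = 0.0052), and Ubd, a ubiquitin-like protein (1.96 and -2.55, interaction 4.51). Ubd was not called on the deficient diet, nor with any 1 array left out (adjusted p of limma of 0.092 to 0.29). The apoptosis gene Bmf (2.37 and 4.76), Tspyl4 (1.01 and 3.27), Cspg5 (1.42 and 4.03) and the pyrimidine enzyme gene Dpys (-2.75 and -0.52) had negative interactions, of -2.38, -2.27, -2.61 and -2.23. Dpys had 2.84, 2.10, 3.32 and 3.77 in C3H/HeJ and 5.58, 5.77, 5.84 and 5.85 in A/J deficient livers, against 5.23 to 5.70 in C3H/HeJ and 5.54 to 6.07 in A/J controls. The C3H/HeJ deficient arrays were the low ones of the 4 groups. Of the called genes with another tested probe, 561 in all, 487 (86.8%) had the same sign in the others.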

How the data were processed

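RNA of snap-frozen livers was labelled with Cy3 and hybridised to single-colour Agilent arrays, per the labels' protocols, and each of the 24 arrays was read with Agilent Feature Extraction 10.7, per the file headers. The authors deposited the scanner output, which holds processed signal intensity per spot together with other columns of marks per spot (above background, saturation, outlier). The deposited normalized intensity table equals the processed signal multiplied by a constant for each array. Probe coordinates are those of NCBI37, per the file headers, and whether an array is a single animal is not given in the sources used here.

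Processed signals were taken to log2 and set relative to each array's 75th percentile. Of 55681 gene probes, 32740 had a gene name (26863 by accession, 3752 by symbol, 623 by synonym and 1502 as in the array files), and 22941 without a name were left out. Probes were kept if 1 or both deficient groups had them marked above background on all of their 4 arrays, and the brightest probe of each gene gave 14796 genes. Spots flagged as outliers (1115 on the 8 arrays) were left out, so that 7 genes had a value on fewer than 8 arrays. Intensities of arrays carry no read depth, and 4 arrays per strain limit the precision.

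The strains were compared with limma 3.58.1 in R 4.3.3 on 8 arrays per diet, and the interaction on 16 arrays, with Benjamini-Hochberg adjustment over all genes and a threshold of 0.05. Limma was also run on simulated data with known answers. Alternatives covered the background correction, scaling, filter, probe choice, slide, replicate block, samples in the fit, prior, array weights, thresholds and each array left out. The fit without both deficient arrays numbered 4 was added after the data were seen. Members of the 47 lists (1135 genes, of which 1007 were tested), the comparisons and the rules were chosen with earlier results of these data known. Genes are named where they were among the 10 largest changes each way measured on at least 3 arrays per strain, the 4 largest bounds each way, the lowest adjusted p of each list, a panel of 51 genes, the 5 largest interactions each way, or the genes called on both diets with the same or opposite signs. Other called members of a list were named after their values were seen. Replicate numbers were not used as pairs in the main fits, although the deviations of the deficient replicates 4 of the strains had a correlation of 0.56. Some genes that were measured and tested are not reported here by name.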

Additional observations from a re-analysis of the deposited data

Results flagged for a closer look

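On 14 of 346 groups of 4 arrays, 1 array lay apart from the other three by more than Dixon's critical value, and chance gives about 1 in 20. In C3H/HeJ deficient livers these were replicate 4 for Cspg5 (0.45), Fgf21 (2.34) and Ifit3 (3.37), replicate 1 for Dnmt3a (1.84) and Folr2 (-3.2), and replicate 2 for Ica1l (2.3). In A/J deficient livers they were replicate 4 for A830052D11Rik (0.22), Ica1l (-1.43) and Mc3r (-3.88), replicate 1 for Cela2a (1.26) and Per3 (-4.09), replicate 3 for Folr2 (0.98) and Orm1 (4.13), and replicate 2 for Id3 (3.7). Each value is the log2 level on that array.

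The difference between C3H/HeJ and A/J was itself different on the deficient and the control diet, by limma's interaction over 16 arrays, for 28 named genes. It was more positive on the deficient diet for the cell cycle genes Ska1 (3.14), Kif2c (3.41), Tpx2 (2.71), Kif20a (1.77), Mki67 (2.13), Rrm2 (1.41), Ccnd1 (2.1) and Cdkn1a (3.9). It was also more positive for Afp (1.79), Spink1 (3.69), Krt8 (1.14), Sox9 (1.32), Tgfb2 (2.69), Hapln1 (3.72), Ddias (3.19), Ubd (4.51), H2-Ab1 (3.73), Atp6v0d2 (2.04), Hkdc1 (3.37), Cyp4a14 (3.84), Ugt3a1 (1.45), Ptgds (2.82) and Zfp979 (1.42). It was more negative for Adgrf1 (-2.88), Cspg5 (-2.61), Bmf (-2.38), Tspyl4 (-2.27) and Dpys (-2.23). The sizes for Ska1, Kif2c, Tpx2, Hapln1 and Tgfb2 are not exact, because their C3H/HeJ control levels were dim (means of -5.88 to -5.18).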

How the results depend on the processing

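The deficient-diet count of 2338 was 1483 when scaled on spike-in probes (914 higher and 569 lower), 3621 with array weights (1733 and 1888), 1087 at an adjusted p of 0.01 and 1002 with a 2-fold minimum, and 1564 to 3190 with 1 array left out (1566 higher and 1624 lower without C3H/HeJ replicate 4). The control-diet count of 2970 was 1976 with the replicate block and 2023 to 2882 with 1 array left out. The interaction count (172 positive and 81 negative) was 72 when scaled on spike-in probes, 153 with the slide as fixed block, 139 with the replicate block, 547 with all 24 arrays, 569 without both deficient replicates 4, and 84 to 1010 with 1 array left out. Other alternatives for these counts stayed within 1.5 times. The replicate block gave 2229 deficient-diet calls, and arrays of the same number had correlations of -0.19 to 0.56 between the strains in their deviations.

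Of 141 named genes that were called, 49 missed an adjusted p of 0.01 and 38 a 2-fold minimum. Leaving these stricter thresholds aside, 81 kept the call under every alternative in which they had a tested value, and 38 lost it without at least 1 single array. The sign turned for Alb with quantile normalization (0.077) or normexp (0.016), Apob and Hsd17b13 with the mean of probes (0.18 and 0.041), Cd68 with array weights (0.012), Cyp7a1 with median centring (0.0079) or spike-in probes (0.053), Hsd3b5 with the slide block (-0.00076), array weights (-0.27) or without both replicates 4 (-0.26), Ifi202b within slide 2 (0.092), Mttp with spike-in probes (0.0039) and Trem2 with the slide block (-0.019). With 1 array left out, differences that were not called ranged over 0 for Cd3e (-0.0083 to 0.22), Cd68 (-0.30 to 0.079), Cyp7a1 (-0.40 to 0.35), Gnmt (-0.54 to 0.042), Gpnmb (-0.19 to 1.26), Hamp (-0.29 to 0.033), Hsd3b5 (-0.32 to 0.42), Mttp (-0.16 to 0.039), S100a8 (-0.44 to 0.031) and Trem2 (-0.18 to 0.51). The causes were not tested. Called counts of other lists also moved by over 1.5 times: lower methyl-cycle genes from 5 to 2 with spike-in scaling, bile acid genes from 3 higher and 3 lower to 1 and 1 with median centring, and higher clock genes from 4 to 8 with spike-in scaling or 2 with no background filter.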

Other observations

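Krt18, a keratin of hepatocytes, had a level of 12.17 on A/J deficient replicate 4, against 7.42 to 8.94 on the other 15 arrays of both strains and diets.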
